A study of Mus musculus with 14 samples.

Results

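The set described here holds 10 genes that regulate blood vessel growth and stability in the eye. Each was taken by name, but earlier results of these data were known when the set was chosen. They are the ligands Vegfa, Vegfb, Vegfc and Pgf, the VEGF receptors Kdr and Flt1, the angiopoietin Angpt1 with its receptor Tek, and the antiangiogenic factors Serpinf1 and Thbs1. All 10 were among the 34452 mouse gene rows of the count table, and all 10 were among the 16289 genes with enough counts to be tested. RNA came from the retinal pigment epithelium (RPE) of rd1 mice (strain FVB/N), in which a loss of function in the rod gene Pde6b removes the rods early, at postnatal day 20. In each of 7 mice one eye had received AAV-Best1-GFP alone (control) and the other AAV-Best1-GFP together with AAV-Best1-Nrf2 (Nrf2). The human Best1 promoter restricts the transgene to the RPE, and both eyes of every mouse carried the GFP vector. Only the Nrf2 eye received an additional vector, which had another capsid and, per the study's methods, raised the total vector dose. An effect of the transgene and one of the additional vector therefore cannot be told apart. Nrf2 is a transcription factor that binds antioxidant response elements and switches on genes of detoxification.

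VEGF-A, made by the RPE, maintains the fenestrated choriocapillaris that feeds the outer retina, and its excess drives the leaking vessels of neovascular eye disease. VEGF-A acts through the receptor tyrosine kinases KDR (VEGFR2), the main signalling receptor of endothelium, and FLT1 (VEGFR1), which binds its ligands tightly and can act as a decoy. Angiopoietin 1 activates the endothelial receptor TEK (Tie2) and stabilises vessels, a signal that angiopoietin 2 can oppose, while pigment epithelium-derived factor (Serpinf1) and thrombospondin 1 (Thbs1) restrain vessel growth.

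The vector transcript was examined first, as a check of the labels. It reached 1163 to 8711 CPM (counts per 1e+06 counts of a library) in the libraries labelled Nrf2 and 1.12 to 1163 CPM in those labelled control, with the Nrf2 eye above its partner in 7 of 7 mice. The extremes met in a pair of libraries, the one labelled control 3 and the one labelled Nrf2 4, which held the same vector level and were also the most alike pair of all libraries, with a median squared difference of 3.81 times the sampling noise against 11.1 times for the next pair. The fit was therefore repeated without mice 3 and 4. The library labelled Nrf2 2 was the shallowest, with 16548349 counts, and 2.55% of its counts fell on pseudogenes, against 1.06% to 1.17% elsewhere. Of 12 RPE markers none was at 0 in any library. Their summed level was 16870 to 36480 CPM in control and 20530 to 31350 CPM in Nrf2 eyes. Rpe65, the isomerase of the visual cycle, nevertheless fell in Nrf2 eyes (log2 fold change -2.17 ± 0.37 SE, edgeR adjusted p = 0.0199). By log2 fold change 6 of the 12 were positive and 6 negative. Mean levels were 3401 CPM in control and 9005 CPM in Nrf2 eyes for Ttr, and 7039 and 4074 CPM for Rgr, neither of them called. All 12 endothelial markers also had counts above 0 in every library. Their lowest counts ran from 2 for Robo4 and 3 for Erg to 497 for Pecam1. The receptor transcripts below were therefore measured in RPE samples that also held RNA of vessel markers, some of them near 0.

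Angpt1 was the member that differed between the eyes. Every Nrf2 eye exceeded the control eye of its mouse (7 of 7), 4.84-fold on average (95% interval 3.22 to 7.26), whereas its receptor Tek, the VEGF ligands, the VEGF receptors and both antiangiogenic factors did not pass the test. Without mice 3 and 4 the log2 fold changes of the 8 members other than Angpt1 and Flt1 were 0.04 for Vegfa, 0.33 for Vegfb, -0.38 for Vegfc, -0.28 for Pgf, -0.75 for Kdr, 0.47 for Serpinf1, -0.50 for Tek and 0.34 for Thbs1, with edgeR adjusted p-values from 0.42 to 0.97. With all 7 mice 1 of 10 members was called, beside 3.43% of all tested genes. That 1 was called higher, beside 2.94%, and 0 were called lower, beside 0.491%. The median log2 fold change of the members was -0.13, and that of all tested genes was -0.04. In bulk RNA, fewer cells of a type and less RNA per cell cannot be told apart, which holds for every comparison here.

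**Figure D1:**
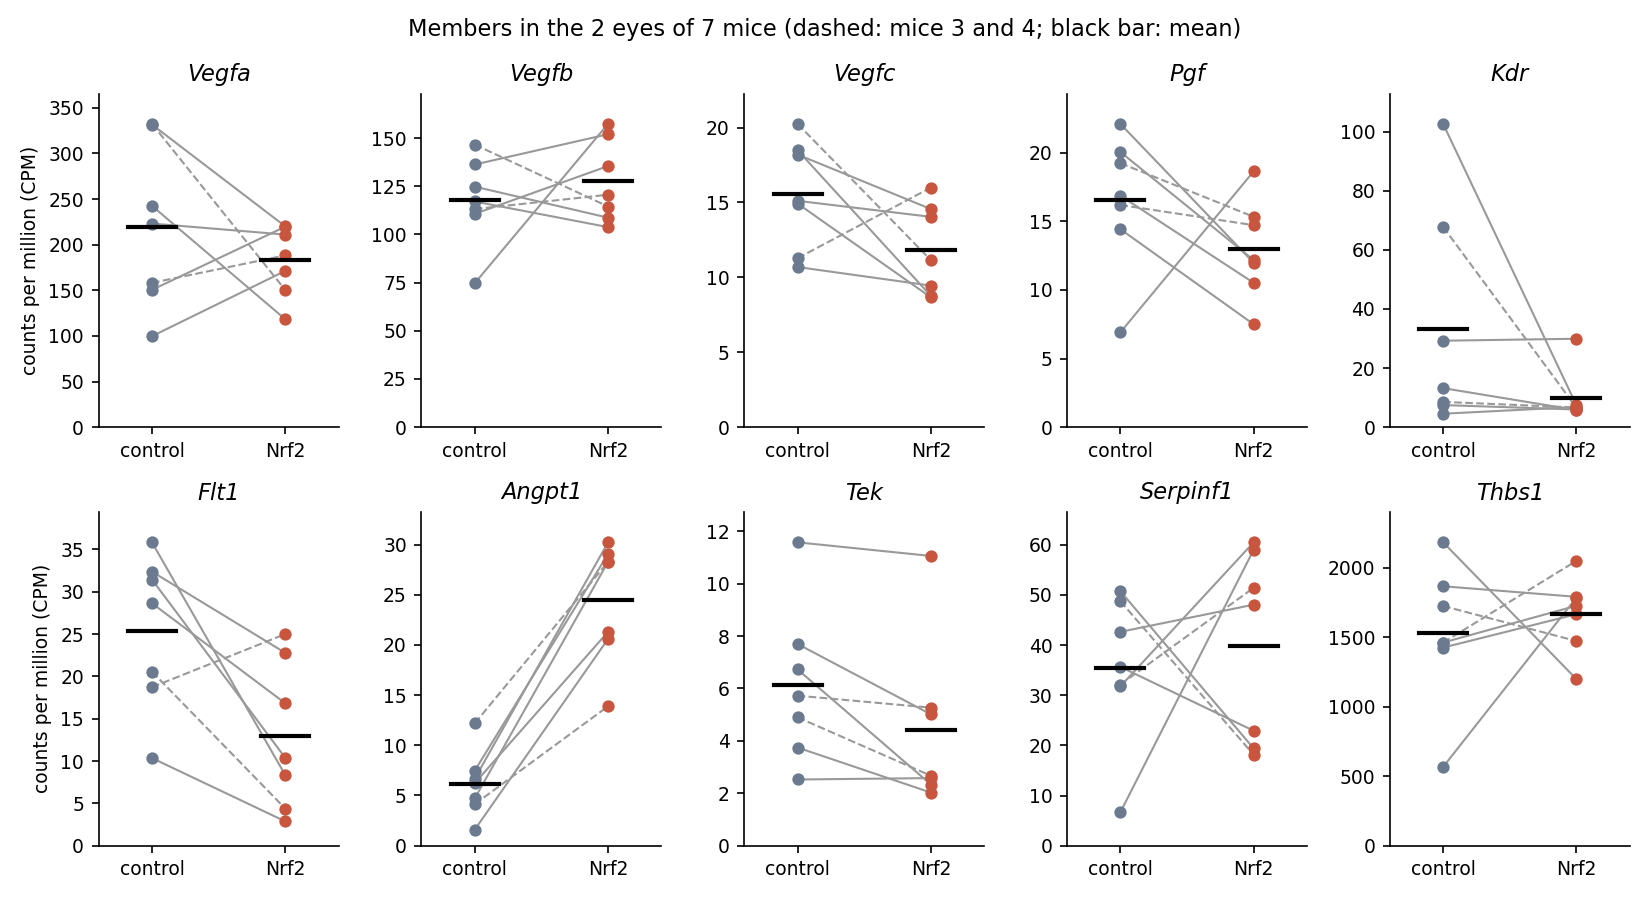
CPM (y axes, linear, starting at 0) of the 10 members in the control and Nrf2 eye of each of 7 mice; each line joins the eyes of a mouse, dashed for mice 3 and 4, and black bars are group means. The Angpt1 values of the groups do not overlap (highest control 12.2 CPM, lowest Nrf2 13.9 CPM), while those of each other member do.

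Promoter sequences are shown for the VEGF ligand Vegfc and the receptors Kdr and Flt1, because Vegfc and Kdr carry in them the core letters of the element that Nrf2 binds, and Flt1 had the lowest fold change of the set. Adm, a called gene of the pathway lists below, is shown beside them for the same letters. Each line gives the 250 bases before the transcription start from RefSeq on build GRCm38.p6, 5′ to 3′ on the strand of the gene. Capitals mark matches, on either strand, to TGACNNNGC (the antioxidant response element core), ACGTG (the hypoxia response element core) or TATAAA. The windows are chr8:54077282-54077531 on the plus strand for Vegfc, chr5:75978456-75978705 on the minus strand for Kdr, chr5:147726012-147726261 on the minus strand for Flt1 and chr7:110627407-110627656 on the plus strand for Adm.
Vegfc: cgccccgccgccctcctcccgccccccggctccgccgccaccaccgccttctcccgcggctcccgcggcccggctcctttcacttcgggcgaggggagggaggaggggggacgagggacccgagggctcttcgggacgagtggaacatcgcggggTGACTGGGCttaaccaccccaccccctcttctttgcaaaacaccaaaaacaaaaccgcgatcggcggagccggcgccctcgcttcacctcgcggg
Kdr: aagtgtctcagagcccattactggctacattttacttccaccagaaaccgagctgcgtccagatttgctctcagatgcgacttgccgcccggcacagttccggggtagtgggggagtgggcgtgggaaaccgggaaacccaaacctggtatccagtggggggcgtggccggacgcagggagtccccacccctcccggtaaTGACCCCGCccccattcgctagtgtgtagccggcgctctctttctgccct
Flt1: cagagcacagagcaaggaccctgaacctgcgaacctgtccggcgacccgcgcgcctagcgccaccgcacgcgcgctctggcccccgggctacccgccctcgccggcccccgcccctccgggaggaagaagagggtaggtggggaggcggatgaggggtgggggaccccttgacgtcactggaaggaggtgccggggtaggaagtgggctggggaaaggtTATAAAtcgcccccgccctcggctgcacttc
Adm: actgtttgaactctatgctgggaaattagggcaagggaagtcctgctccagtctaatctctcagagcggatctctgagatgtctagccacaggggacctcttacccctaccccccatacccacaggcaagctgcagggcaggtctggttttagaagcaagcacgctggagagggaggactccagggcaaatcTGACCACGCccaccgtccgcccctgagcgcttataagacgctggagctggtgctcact

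RefSeq promoter entries were matched for 8 of the 10 members, without Angpt1 and Thbs1. In windows of 300 bases, from 250 before to 50 after the start, the antioxidant response element core was present in 3 of the 8, namely Vegfc, Pgf and Kdr, and in 12.4% of all 32817 mouse promoters in the same table. A member was counted if any of its starts held the letters, and Vegfa and Pgf had more than 1 start. The percentages count single promoters, so the units are unlike. In Vegfc its first base lay 95 bases before the start, in Pgf 131 and in Kdr 50. None of these 3 genes passed the test between the eyes. Of the pathway genes called higher, Adm held the core 58 bases before its start, and Unc5b and Igfbp3 did not hold it. The hypoxia core was found in 2 of the 8 (the second of the Vegfa starts and Serpinf1), and in 19.6% of all promoters. TATAAA was found in Flt1, 31 bases before the start, and in 13.6% of all promoters. The 3 motifs did not overlap in the sequences printed, and a match of letters is not evidence of binding.

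Angpt1 (ENSMUSG00000022309, chr15:42424723-42676977, minus strand, GRCm38) is the agonist of Tek. In the control eyes of mice 1 to 7 it measured 6.68, 4.71, 12.2, 4.14, 6.23, 1.60 and 7.48 CPM. In their Nrf2 eyes it measured 30.2, 28.3, 28.3, 13.9, 21.3, 20.6 and 29.1 CPM. No Nrf2 value was as low as any control value, although the highest control library, control 3, and the lowest Nrf2 library, Nrf2 4, were close. Such separation upward was seen in 1.04% of all tested genes. The group means were 6.15 ± 3.30 and 24.5 ± 6.06 CPM (SD, n = 7 each), and the log2 fold change was 2.27 ± 0.26 (SE, edgeR adjusted p = 0.00936). Within mice the difference in log2 CPM ran from 1.42 in mouse 3 to 3.61 in mouse 6. Of all tested genes, 0.939% had a higher fold change than Angpt1. Its counts were 38 at the lowest, in control 6, and 1469 at the highest, so counting error was small beside the difference. Without mice 3 and 4 the log2 fold change was 2.52 ± 0.29 (edgeR adjusted p = 0.00728). Angpt1 passed the threshold in all 16 alternative analyses, with log2 fold changes of 1.95 to 2.52.

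Angpt1 was also set against its antagonist. Angpt2, made by activated endothelium, measured 4.83 ± 2.07 CPM in control and 8.07 ± 7.59 CPM in Nrf2 eyes (SD, n = 7 each) and did not pass (log2 fold change 0.60 ± 0.47 SE, edgeR adjusted p = 0.53). The library labelled Nrf2 2 held 24.5 CPM of Angpt2, against 2.43 to 8.70 CPM in the other Nrf2 eyes. Per transcript length, the ratio of Angpt1 to Angpt2 was 0.466 at the lowest, 0.793 at the median and 1.76 at the highest in control eyes. In Nrf2 eyes it was 0.817, 3.03 and 8.83. The ratio was above 1 in 3 of 7 control and 6 of 7 Nrf2 eyes and exceeded the control value within each of the 7 mice, but the ranges overlapped. The smallest of these differences within a mouse was 0.04 log2 units. The 3 genes whose log2 CPM followed Angpt1 most closely over the 14 libraries, of 12024 searched, were C1ra (a complement protease, Pearson r = 0.98), Lpl (lipoprotein lipase, 0.97) and Igfn1 (0.97), and since all libraries enter these correlations they include the difference between the groups. C1ra rose by 1.92 ± 0.26, Lpl by 1.93 ± 0.23 and Igfn1 by 2.45 ± 0.41 (log2 fold change ± SE), each with an edgeR adjusted p of at most 0.0186.

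Tek (ENSMUSG00000006386, chr4:94739289-94874976, plus strand), the angiopoietin receptor of endothelium, was not called. It had 2.53 CPM at the lowest, 5.73 at the median and 11.6 at the highest in control eyes, and 2.03, 2.67 and 11.1 CPM in Nrf2 eyes. The ranges overlapped almost entirely, and the highest value of each group came from mouse 2. The log2 fold change was -0.45 ± 0.25 (SE, 95% interval -1.01 to 0.11, edgeR adjusted p = 0.37), with 5 of 7 mice lower, and the interval holds both 0 and a decrease of 1 log2 unit. Without mouse 7 it was -0.29. Of the other genes of the angiopoietin and Tie list, 0 of 5 were called. They were Angpt2, Angpt4, Tie1, Ptprb (the phosphatase that restrains Tek) and Angptl4, whose value of -1.25 ± 0.29 missed the threshold at an edgeR adjusted p of 0.0592. Angptl4 was called by DESeq2, by limma voom, without mouse 4 and without mice 3 and 4. At an unadjusted p under 0.05, 2955 of all tested genes passed.

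**Figure D2:**
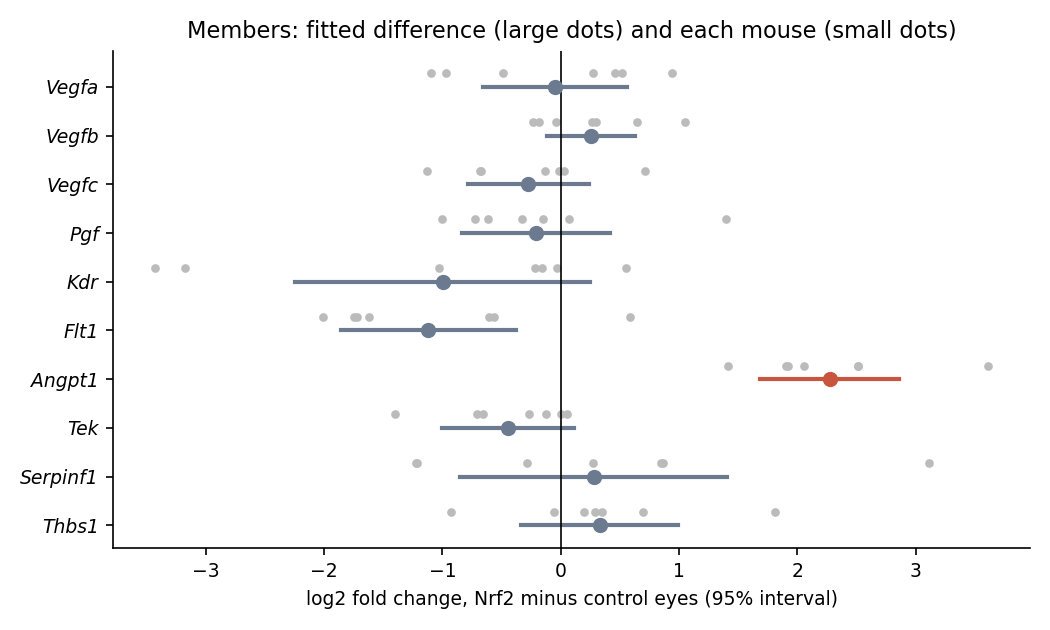
Log2 fold change of each member between Nrf2 and control eyes (x axis) from the paired edgeR fit, as large dots with 95% intervals, red where the adjusted p was under 0.05; small grey dots are the differences in log2 CPM within each of the 7 mice. The interval of Angpt1 runs from 1.69 to 2.86, that of Flt1 from -1.86 to -0.38 without passing after adjustment, and each of the other 8 intervals includes 0.

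The VEGF ligands were next. Vegfa (ENSMUSG00000023951, chr17:46016993-46032369, minus strand) measured 99.7 CPM at the lowest, 223 at the median and 332 at the highest in control eyes, and 118, 188 and 220 CPM in Nrf2 eyes. The Nrf2 values lay inside the control range, which spanned 3.33-fold, and the difference took both signs, upward in 4 mice and downward in 3. The log2 fold change was -0.05 ± 0.27 (SE, 95% interval -0.66 to 0.56, edgeR adjusted p = 0.95). Its sign changed in 5 of the 16 alternatives, none of which called it. Vegfa varied with the RPE markers, with r = 0.77 between its log2 CPM and the log of their sum over the 14 libraries, and their part in its values was not tested. The markers with the highest means in that sum were Rgr, Pmel and Ttr. The genes most like it were Loxl1 (a lysyl oxidase of the elastic matrix, r = 0.96), Pdpn (podoplanin, 0.94) and Rnf215 (0.94).

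Vegfb (ENSMUSG00000024962, chr19:6982473-6987651, minus strand), a FLT1 ligand, had the smallest standard error of the ligands. It measured 74.7, 117 and 147 CPM (lowest, median and highest) in control eyes and 104, 121 and 157 CPM in Nrf2 eyes. The ranges overlapped, and the lowest value of all was that of control 6. The fitted log2 fold change was 0.25 ± 0.16 (SE, 95% interval -0.12 to 0.63, edgeR adjusted p = 0.44), an interval that leaves out a change of 1 log2 unit in either direction. Without mouse 6 the log2 fold change was 0.11. Most like Vegfb were Ndufb5 (a subunit of mitochondrial complex I, r = 0.96), Copz2 (0.96) and Timp2 (a metalloproteinase inhibitor, 0.95).

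Vegfc (ENSMUSG00000031520, chr8:54077606-54187096, plus strand), best known as the lymphatic ligand, and Pgf (ENSMUSG00000004791, chr12:85166635-85177790, minus strand), placental growth factor and another ligand of FLT1, were the scarce ligands. Vegfc measured 10.7, 15.1 and 20.3 CPM (lowest, median and highest) in control and 8.67, 11.2 and 15.99 CPM in Nrf2 eyes. Pgf measured 6.90, 16.9 and 22.1 CPM in control and 7.49, 12.2 and 18.6 CPM in Nrf2 eyes. Both medians were lower in the Nrf2 eyes, but the ranges of each gene overlapped. The log2 fold changes were -0.27 ± 0.23 for Vegfc (95% interval -0.79 to 0.24, edgeR adjusted p = 0.55) and -0.21 ± 0.27 for Pgf (-0.84 to 0.41, edgeR adjusted p = 0.72), each lower in 5 of 7 mice. Leaving out 1 mouse moved Vegfc between -0.42 (mouse 3) and -0.13 (mouse 2), and Pgf between -0.47 (mouse 6) and -0.08 (mouse 2). Vegfc was most like Dab2ip (r = 0.90), Gip (0.88) and Kat2b (0.88), and Pgf was most like Akt2 (0.93), Hmgn2 (0.92) and Gse1 (0.91).

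The receptors had the lowest fold changes of the set. Flt1 (ENSMUSG00000029648, chr5:147561604-147726011, minus strand) measured 35.8, 32.4, 20.6, 18.7, 28.6, 31.4 and 10.3 CPM in the control eyes of mice 1 to 7, and 8.33, 22.8, 4.38, 25, 16.8, 10.4 and 2.87 CPM in their Nrf2 eyes. It was lower in the Nrf2 eye of 6 of 7 mice and higher in that of mouse 4, and the groups overlapped. The means were 25.4 ± 9.12 and 12.9 ± 8.76 CPM (SD, n = 7 each). The log2 fold change was -1.12 ± 0.32 (SE), with an unadjusted p of 0.00764 and an adjusted p of 0.11 by edgeR, so Flt1 was not called. It was called when mice 3 and 4 were left out (-1.26 ± 0.25, edgeR adjusted p = 0.0432), when mouse 4 alone was left out (-1.39 ± 0.24, edgeR adjusted p = 0.0117), by DESeq2 (-1.10 ± 0.32, adjusted p = 0.00911) and by limma voom with sample weights (-1.21 ± 0.26, adjusted p = 0.0183). In the remaining 12 alternatives it stayed negative and missed the threshold. Each of these 4 analyses called 2 of 10 members, Angpt1 and Flt1. They called 4.51% of all tested genes without mice 3 and 4, 12.2% without mouse 4, 10.3% with DESeq2 and 15.9% with voom. Without the block for mouse, 1 of 10 members was called, beside 6.75%.

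**Figure D3:**
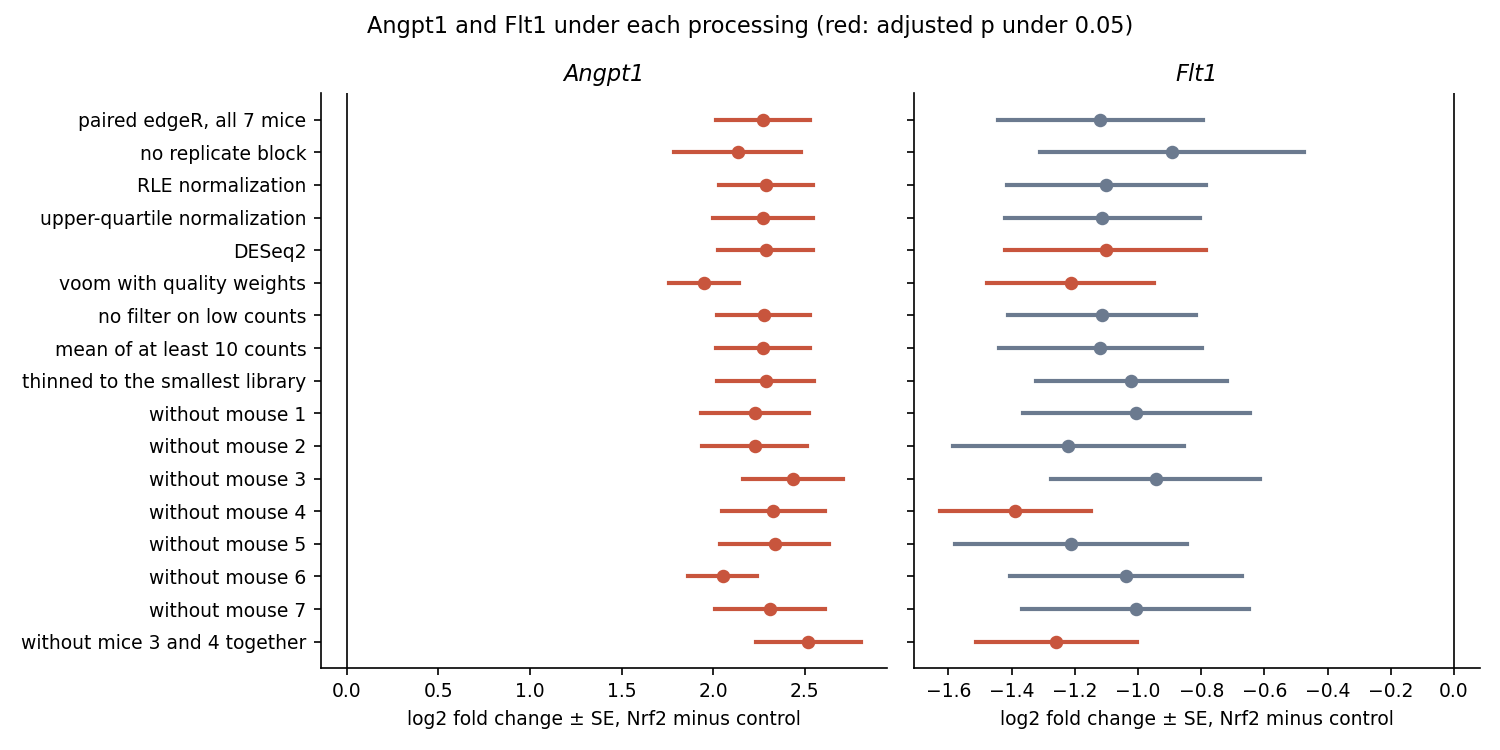
Log2 fold change ± SE (x axes) of Angpt1 and Flt1 in the paired edgeR fit on 7 mice and under 16 alternatives (rows), red where the adjusted p was under 0.05. Angpt1 is red in every row, from 1.95 to 2.52, and Flt1 lies between -1.39 and -0.89 and is red in 4 rows.

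Kdr (ENSMUSG00000062960, chr5:75932827-75978458, minus strand) measured 103, 29.2, 8.56, 67.8, 13.2, 4.55 and 7.48 CPM in the control eyes of mice 1 to 7, and 7.42, 29.9, 6.64, 6.58, 5.78, 6.82 and 5.98 CPM in their Nrf2 eyes. The control eyes spanned 22.6-fold, whereas 6 of the 7 Nrf2 eyes lay between 5.78 and 7.42 CPM and the library labelled Nrf2 2 stood at 29.9 CPM. The difference in log2 CPM was -3.43 in mouse 1 and -3.18 in mouse 4, and between -1.03 and 0.55 in the other 5 mice. Its fitted log2 fold change was -0.9985 ± 0.55 (SE, 95% interval -2.25 to 0.25, edgeR adjusted p = 0.37), and it was -0.61 without mouse 1 and -0.64 without mouse 4. Kdr passed in none of the 16 alternatives, the lowest adjusted p being 0.0642 with limma voom.

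Across the libraries the log2 CPM of Kdr followed the summed level of 8 cone markers (r = 0.78 over 14 libraries) and of 8 Müller glia markers (0.72) as well as that of 12 endothelial markers (0.64). The Müller glia sum came mostly from Rlbp1, which is also on the RPE list, and Dkk3 (means of 1876 and 1509 CPM in control eyes), whereas Slc1a3 and Aqp4 had 73.9 and 23.5 CPM. Among the genes most like it were Celf4 (a neuronal RNA-binding protein, r = 0.95) and Kcnma1 (the BK potassium channel, 0.95). The cone markers summed to 958 CPM in control 1 and 1054 CPM in control 4, the libraries with the highest Kdr, against 41.3 to 422 CPM in the other control eyes and 17.5 to 103 CPM in Nrf2 eyes, and no cone marker was at 0 in any library. The Müller glia markers summed to 2431 to 5390 CPM in control and 2957 to 3655 CPM in Nrf2 eyes, with 0 of 8 called and none at 0. Of the 8 cone markers, 2 were called lower in Nrf2 eyes, Opn1sw (short-wave opsin, log2 fold change -5.12 ± 1.13, edgeR adjusted p = 0.047) and Gnat2 (cone transducin, -1.69 ± 0.32, edgeR adjusted p = 0.0294). The share of all tested genes called lower was 0.491%. All 8 cone markers had negative log2 fold changes. The part of either list in the Kdr values was not tested.

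Of the 12 endothelial markers 0 were called by edgeR, their median log2 fold change was -0.04, and their sum was 57.3 to 308 CPM in control and 83.8 to 166 CPM in Nrf2 eyes. Per 100 CPM of these markers, Kdr was lower in the Nrf2 eye of 6 of 7 mice, and Flt1 and Tek were each lower in 4 of 7. Per 100 CPM, Flt1 ran from 10.1 to 54.9 in control eyes and from 3.01 to 21.04 in Nrf2 eyes. Tek tracked the endothelial sum (r = 0.77), its most similar genes being Crtc3 (0.88), Morc2a (0.81) and Ccdc77 (0.80), while Flt1 followed it loosely (r = 0.29). The genes most like Flt1 were Cmip (r = 0.94), Syt16 (0.94) and Pcsk6 (a proprotein convertase, 0.92), of which Pcsk6 fell (log2 fold change -1.48 ± 0.30, edgeR adjusted p = 0.0375).

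Of 9 markers of pericytes and vascular smooth muscle, the cells that clothe vessels, 2 fell in the Nrf2 eyes. The share of all tested genes called lower was 0.491%. Kcnj8, a potassium channel subunit of pericytes, averaged 54.0 ± 22.6 CPM in control and 16.4 ± 9.30 CPM in Nrf2 eyes (SD, n = 7 each), a log2 fold change of -1.59 ± 0.32 (edgeR adjusted p = 0.0335). Rgs5, a pericyte regulator of G protein signalling, averaged 4.55 ± 2.50 and 1.85 ± 1.39 CPM, a log2 fold change of -1.35 ± 0.29 (edgeR adjusted p = 0.0407). Both were lower in all 7 mice. The other 7, among them Pdgfrb and Acta2, did not pass. Of the 9 log2 fold changes, 4 were positive (Acta2 0.23, Abcc9 0.16, Myh11 0.44 and Tagln 0.39) and 5 negative. The summed level of the list was 368 to 1482 CPM in control and 420 to 1723 CPM in Nrf2 eyes.

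**Figure D4:**
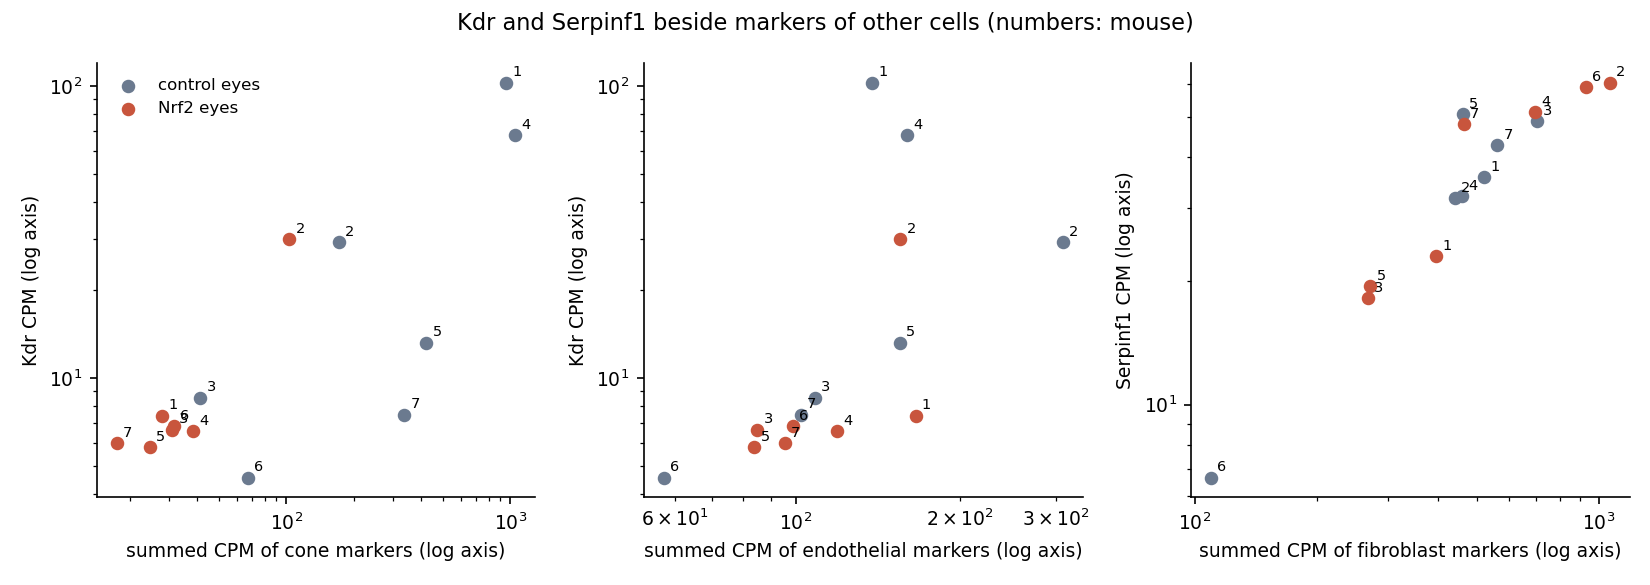
Kdr against the summed CPM of cone markers (left) and endothelial markers (middle), and Serpinf1 against that of fibroblast markers (right), on log axes, with 1 point per library, coloured by group and numbered by mouse. The highest Kdr values, controls 1 and 4, have the highest cone sums (958 and 1054 CPM), and the library with the lowest fibroblast sum, control 6, has the lowest Serpinf1 (6.65 CPM) as the one with the highest sum, Nrf2 2, has the highest (60.5 CPM).

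Neither antiangiogenic member passed the test. Serpinf1 (ENSMUSG00000000753, chr11:75409769-75422701, minus strand) measured 6.65 CPM at the lowest, 35.7 at the median and 50.8 at the highest in control eyes, and 18.1, 48.1 and 60.5 CPM in Nrf2 eyes. The groups overlapped, and the lowest value, in control 6, stood apart from the other control eyes at 31.8 CPM and above. Serpinf1 had a log2 fold change of 0.28 ± 0.50 (SE, 95% interval -0.85 to 1.41, edgeR adjusted p = 0.81), and without mouse 6 it was -0.13. Serpinf1 followed the summed level of 6 fibroblast markers (r = 0.94 over 14 libraries) and of 5 melanocyte markers (0.87). It also followed that of the pericyte and vascular smooth muscle markers (0.84), against 0.11 for the RPE markers. The genes most like Serpinf1 were Rcn3 (r = 0.97), Adamts2 (a procollagen protease, 0.96) and Bpifb5 (0.96). The fibroblast sum was 110 CPM in control 6, 441 to 701 CPM in the other control eyes and 268 to 1065 CPM in Nrf2 eyes, and none of its markers was called or at 0 in any library. The melanocyte sum was 575 CPM in control 6, 898 to 1308 CPM in the other control eyes and 1052 to 1431 CPM in Nrf2 eyes, with 0 of 5 markers called and none at 0. The part of any of these lists in the Serpinf1 values was not tested.

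Thbs1 (ENSMUSG00000040152, chr2:118111876-118127133, plus strand) was the most abundant member. It measured 566, 1461 and 2182 CPM (lowest, median and highest) in control and 1198, 1726 and 2049 CPM in Nrf2 eyes. The Nrf2 range lay within the control range. For Thbs1 the log2 fold change was 0.33 ± 0.29 (SE, 95% interval -0.33 to 1.00, edgeR adjusted p = 0.58), with 5 of 7 mice higher, and it was 0.10 without mouse 5, the source of the lowest control value, and 0.53 without mouse 2. Its most similar genes were Man1a (r = 0.95), Cldn1 (a tight junction protein, 0.94) and Col8a1 (0.93). The other thrombospondins Thbs2, Thbs3 and Thbs4 and the receptors Cd36 and Cd47 were called in 0 of 5 cases, with log2 fold changes from -0.64 to 0.15. The inhibitors Timp3, Col18a1 (the source of endostatin), Adamts1, Sparc and Pnpla2 (a receptor for the Serpinf1 protein) were also called in 0 of 5 cases, from -0.38 to 0.35, while Vash1 and Cxcl10 had too few counts to be tested.

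Levels of different genes were compared as TPM, which divide counts by exon length before scaling each library to the same total. In control eyes the order of mean TPM was Thbs1 (728 ± 245, SD, n = 7), Vegfb (212 ± 44.1), Vegfa (149 ± 63.2), Serpinf1 (43.5 ± 17.9), Vegfc (18.4 ± 4.69), Pgf (16.5 ± 5.06), Kdr (10.97 ± 12.7), Flt1 (5.44 ± 1.99), Tek (3.77 ± 1.81) and Angpt1 (3.41 ± 1.80). From Serpinf1 downward each range overlapped that of the next gene, and the ranges of Thbs1 and Vegfb and of Vegfb and Vegfa overlapped too, though within each library Thbs1 exceeded Vegfb and Vegfb exceeded Vegfa. In Nrf2 eyes the first 5 kept their places, the first 4 without overlap with the next, and Angpt1 stood sixth of 10 at 13.2 ± 3.11 TPM. It was then level with Vegfc (13.5 ± 3.45 TPM) and Pgf (12.6 ± 3.65 TPM), and above Kdr (3.03 ± 2.62 TPM), Flt1 (2.69 ± 1.82 TPM) and Tek (2.61 ± 1.83 TPM). Several of these places depend on the length taken for each gene. With the mean length of protein-coding transcripts Vegfa stood above Vegfb, and with the longest transcript Pgf stood above Vegfc. Under both, Angpt1 stood above Tek in control eyes and Flt1 above Kdr in Nrf2 eyes, and in Nrf2 eyes Angpt1 was sixth with the longest transcript and seventh with the mean length.

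The remaining pathway genes were read from lists. Of 56 genes outside the set, 53 were tested, 3 were called higher and 1 lower, which is 7.55% beside 3.43% of all tested genes. These lists were chosen with earlier results of these data known, so their share of calls is a description and not an independent test. In the list of other VEGF ligands, receptors and co-receptors 0 of 7 were called. The co-receptors Nrp1 and Nrp2, which bind VEGF beside KDR, had log2 fold changes of 0.88 ± 0.27 (edgeR adjusted p = 0.13) and 0.84 ± 0.19 (edgeR adjusted p = 0.0559). Nrp2 was higher with Nrf2 in each of the 7 mice, and it was called by DESeq2, by limma voom, without mouse 4 and without mice 3 and 4.

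The called genes came from 2 lists, targets of the hypoxia-inducible factors (HIF), transcription factors that raise Vegfa in low oxygen, and genes that respond to VEGF in endothelium. Adm, the vasodilator peptide adrenomedullin, measured 0.458, 1.402 and 9.65 CPM (lowest, median and highest) in control and 8.37, 36.1 and 90.95 CPM in Nrf2 eyes. It was higher in all 7 mice, and the overlap came from the library labelled control 3 at 9.65 CPM and that labelled Nrf2 4 at 8.37 CPM. Its log2 fold change was 4.51 ± 0.69 (SE, edgeR adjusted p = 0.0138). Ndrg1, the other called HIF target, fell from 88.4 ± 27.6 to 42.8 ± 13.7 CPM (SD, n = 7 each), with a log2 fold change of -0.91 ± 0.19 (edgeR adjusted p = 0.0429), lower in 6 of 7 mice. Thus of 12 HIF targets 1 rose, 1 fell and 10 did not pass. By log2 fold change 6 of the 12 were positive and 6 negative. Among those that did not pass were the glucose transporter Slc2a1 (-0.06 ± 0.17, edgeR adjusted p = 0.88), Ldha (-0.41 ± 0.15, edgeR adjusted p = 0.18) and Pgk1 (0.29 ± 0.11, edgeR adjusted p = 0.19). The HIF subunits and their regulators were called in 0 of 8 cases, with log2 fold changes from -0.86 (Egln3) to -0.03 (Epas1). Hif1a itself measured 425 ± 103 and 356 ± 80.0 CPM (SD, n = 7 each).

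Of 11 VEGF response genes tested, 2 rose, beside 2.94% of all tested genes called higher, and 9 did not pass. By log2 fold change 5 of the 11 were positive and 6 negative. Which cells of these samples held the transcripts was not tested. Unc5b, a netrin receptor of endothelial tip cells, measured 2.80, 3.89 and 7.26 CPM (lowest, median and highest) in control and 7.35, 22.2 and 37.1 CPM in Nrf2 eyes. Its groups did not overlap, although control 3 and Nrf2 4 nearly met, and its log2 fold change was 2.60 ± 0.31 (SE, edgeR adjusted p = 0.00936). Igfbp3, a binding protein of insulin-like growth factors, measured 13.6, 19.8 and 36.1 CPM in control and 37.3, 118 and 230.5 CPM in Nrf2 eyes, again without overlap, and its log2 fold change was 2.49 ± 0.37 (edgeR adjusted p = 0.0135). Among the 9 that did not pass were Plvap, the diaphragm protein of fenestrae (-0.15 ± 0.28, edgeR adjusted p = 0.82), Nos3 (-0.06 ± 0.27, edgeR adjusted p = 0.93) and Apln (-1.36 ± 0.73, edgeR adjusted p = 0.36). Unc5b and Igfbp3 were called whichever mouse was left out, and Adm was lost without mouse 1 or without mouse 5. Ndrg1 was called without mouse 4 or without mouse 6 and was lost without any of the other 5 mice, without mice 3 and 4 together and with no filter on low counts. Without mice 3 and 4 the edgeR fit called 6 pathway genes, namely Adm, Unc5b, Igfbp3, Nrp2, P4ha1 and Angptl4.

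**Figure D5:**
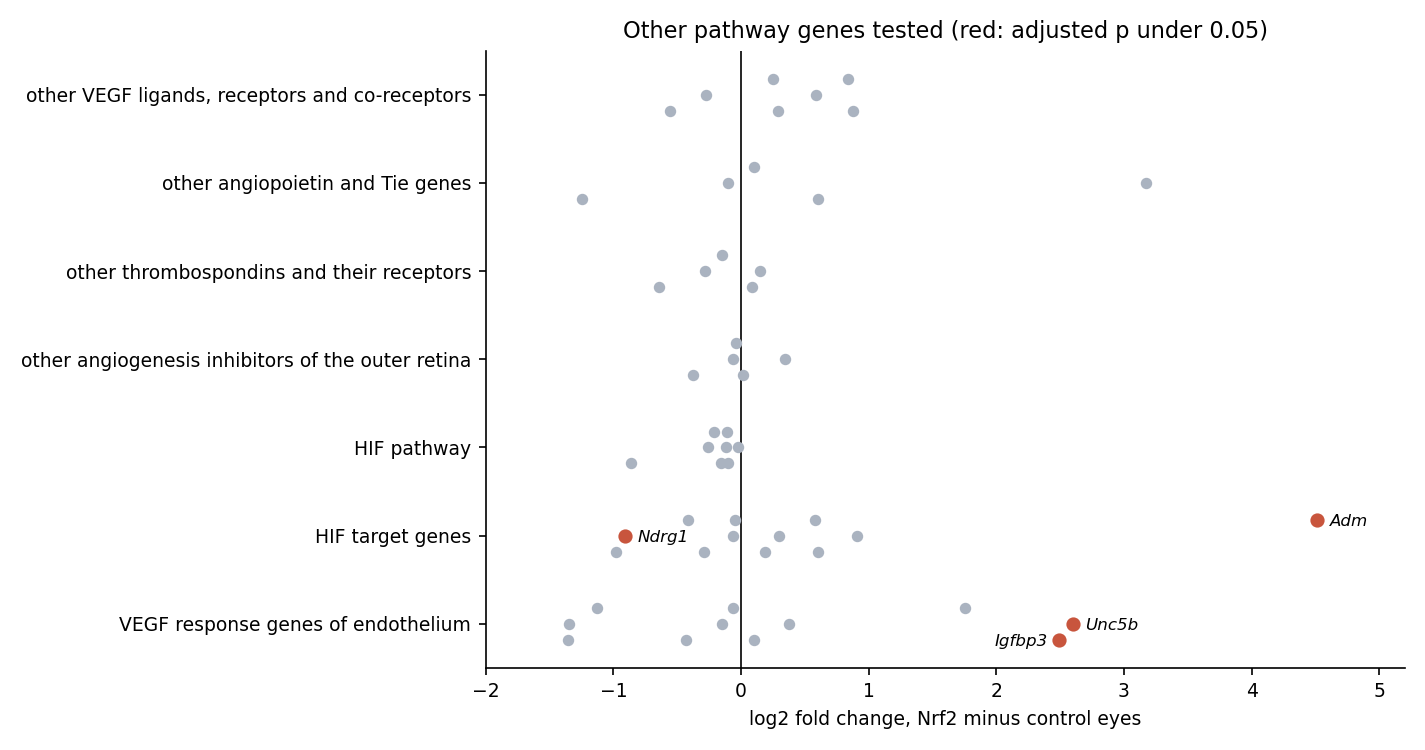
Log2 fold change between Nrf2 and control eyes (x axis) of the 53 tested genes of 7 pathway lists outside the set (rows), 1 point per gene, red and named where the edgeR adjusted p was under 0.05. The red points are Adm at 4.51, Unc5b at 2.60 and Igfbp3 at 2.49, and Ndrg1 at -0.91.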

How the data were processed

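RPE RNA was amplified with a low-input kit and sequenced. The table holds estimated counts, 1 row per gene, which the authors deposited without normalization between libraries. Per the labels and the study's methods, reads were processed against mm10 with Ensembl annotation, and Salmon 0.9.1 estimated transcript counts that were summed per gene; that the table is Salmon's was inferred from its rows. The values were whole numbers and were used as deposited. The authors' estimate divides reads between near-identical genes by a model. GENCODE M21 (GRCm38) gave positions and exon lengths for 34401 of 34452 mouse rows. Total counts ran from 16548349 to 50543008 per library. Samples were grouped, and eyes paired by mouse, from the labels. The labels number 7 mice, all of which were used, while the study's methods state fewer pairs for this comparison. The labels describe different sequencing runs without assigning libraries to them, so no value within a run could be given.

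Counts were fitted with edgeR 4.0.16 in R 4.3.3 by quasi-likelihood (glmQLFTest) on treatment plus mouse, after TMM scaling and filterByExpr at a minimum count of 10, with p-values adjusted over 16289 genes by the Benjamini-Hochberg method and a threshold of 0.05. All fold changes are Nrf2 over control. Standard errors were derived from the F statistic, and 95% intervals used its degrees of freedom. The vector transcript was in the fit and outside all counts of genes. CPM are counts per 1e+06 counts of a library, and differences within mice are of TMM-scaled log2 CPM (prior count 2). The eyes share an animal, and their deviations from the group means correlated at 0.03, 0.07, 0.10, -0.44, 0.40, -0.26 and 0.19 in mice 1 to 7. Correlations across the 14 libraries are descriptions that share libraries, depth and treatment. Scripts were tested on simulated data. The members and gene lists were chosen with earlier results of these data known. Genes named by rule are the members, the called genes of the pathway lists, up to 3 genes of the highest level in each list, markers beside a result, and for each member the 3 genes with at least 5 CPM most correlated with it, of which 1 is not reported here. Other list genes named with values (Angpt2, Egln3, Nos3 and Apln) were chosen after their values were seen.

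Also run were a fit without the mouse block, upper-quartile and RLE scaling, DESeq2 1.42.0, limma 3.58.1 voom with quality weights, other count filters, thinning to the smallest library, each mouse left out, and mice 3 and 4 left out together.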

Additional observations from a re-analysis of the deposited data

Results flagged for a closer look

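Among 28 groups of 7 values examined (members and called pathway genes in each group of eyes), 5 held a library that lay far from the rest by Dixon's criterion. A rate of 1 in 20 would give 1.4. The genes share libraries, and the pathway genes were taken because they were called, so no excess over chance can be read from this. In the library labelled Nrf2 2, Kdr stood at 29.9 CPM against 5.78 to 7.42 CPM in the other Nrf2 eyes, and Tek at 11.1 CPM against 2.03 to 5.27 CPM. That library was the shallowest and held the highest share of pseudogene counts, and the control eye of the same mouse had 29.2 CPM of Kdr and 11.6 CPM of Tek. Without mouse 2 neither receptor was called. Serpinf1 was 6.65 CPM in control 6 against 31.8 to 50.8 CPM in the other control eyes, and the fibroblast marker sum was also lowest there, at 110 CPM. In the library labelled control 3, Adm stood at 9.65 CPM against 0.458 to 3.58 CPM and Unc5b at 7.26 CPM against 2.80 to 4.32 CPM. The same library held 1163 CPM of the vector transcript, the highest of the control eyes.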

How the results depend on the processing

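Angpt1 was called in all 16 alternatives, and 8 of the other 9 members in none. Adjusted p-values of Angpt1 reached 0.0383 at most (edgeR, without mouse 5). Flt1 was called by DESeq2 (log2 fold change -1.10), by limma voom (-1.21) and without mice 3 and 4 together (-1.26), which makes 2 members called in each of these, and without mouse 4. The signs of Vegfa (5 alternatives) and Serpinf1 (2) changed without a call.

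The replicate block by mouse changed no call among the members: without it 1 member was called, Angpt1, with 1100 of all tested genes (877 higher, 223 lower) against 559 (479 higher, 80 lower) with it. Over all genes, 1901 were called by DESeq2, 2592 by voom and 347 with no filter on low counts. Of the other pathway genes, 4 were called by edgeR, 10 by DESeq2 and 13 by voom. Leaving out 1 mouse gave 111 (mouse 7) to 1998 (mouse 4) genes, 1 to 2 members, and 2 (mice 1 or 5) to 12 (mouse 4) pathway genes. It also gave log2 fold changes of -1.39 to -0.94 for Flt1 and 2.05 to 2.44 for Angpt1. The share of calls that were higher went from 479 of 559 to 978 of 1998 without mouse 4. The causes were not tested. Members with under 100 counts in a library, Angpt1 (38) and Tek (59), carry the largest counting error.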
